A study of Mus musculus with 23 samples.

Results

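The Slc38a4 locus was followed through DNA methylation tables of early mouse embryos, from the body of Slc38a4 across its promoter, a germ line differentially methylated region (gDMR), to a long terminal repeat (LTR) of the endogenous retrovirus-K (ERVK) class that lies upstream and carries the start of the non-coding RNA Gm32885. Its members were the windows whose midpoint fell in chr15:96990000-97200000 of GRCm38, chosen by position and not by their values, and windows were likewise assigned to the gDMR by their midpoint. There were 51 such windows among 333984 in the E6.5 table and 58 among 402812 in the E7.5 table, the latter with and without separation of the parental alleles. Of these, 37 windows at E6.5 had a value in every library, 58 did at E7.5 and 48 did for every allele at E7.5.

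The 23 libraries were made by post-bisulphite adaptor tagging (PBAT), a form of whole-genome bisulphite sequencing for few cells, of epiblast, the tissue that forms the embryo proper, and extra-embryonic ectoderm (ExE), the tissue that contributes to the placenta. Crosses are written with the mother first: B6/CAST (C57BL6/Babr mother, CAST/Ei father), CAST/B6 (the reverse) and matDKO/CAST, in which B6/129 females floxed for both Dnmt3a and Dnmt3b and carrying Zp3-cre, which acts in the growing oocyte, were mated with CAST males. Embryos of the last cross lack the DNA methylation that the oocyte normally contributes, and they receive intact Dnmt3a and Dnmt3b from the father. At E6.5, when libraries were made from the input of chromatin of pooled tissues, B6/CAST was represented by 3 epiblast and 2 ExE libraries, CAST/B6 by 3 and 2, and matDKO/CAST by 2 and 3. At E7.5, when single embryos were used, there were 2 libraries of each tissue in B6/CAST and 2 in CAST/B6, with no matDKO/CAST. The column of 1 B6/CAST epiblast library at E6.5 matched its group but no replicate number of the labels, and it is called the unnumbered library.

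Slc38a4 encodes a sodium-coupled transporter of neutral amino acids, is active in placenta and liver, and is known as an imprinted gene read from the paternal allele. At a maternal gDMR, DNA methylation set in the oocyte stays on the maternal allele after fertilization while the paternal allele is kept free of it. In non-canonical imprinting, the oocyte instead marks an allele with the histone modification H3K27me3, and expression from that allele is held back without methylation from the oocyte. ERVK LTRs are remnants of retroviral insertions that carry promoters of their own.

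Values are the percentage of methylated CpG calls per window. The number of reads behind a value is unknown, so that no counting interval can be given, and the percentages were not scaled between libraries. The mean over autosomal windows ran from 63.9% to 78.3% in wild-type epiblast and from 50.5% to 64.5% in wild-type ExE at E6.5, from 51.1% to 53.0% in matDKO/CAST epiblast and from 37.2% to 39.3% in matDKO/CAST ExE. At E7.5 it ran from 71.7% to 75.6% in epiblast and from 56.1% to 59.2% in ExE. The libraries of matDKO/CAST epiblast had a value in 71.5% and 88.7% of all windows, and the alleles of the E7.5 libraries in 74.2% to 89.3%. As a check of the tissue labels at E7.5, the window over the start of Elf5, a trophoblast regulator, was at 85.9% ± 5.06 in epiblast and 63.9% ± 3.65 in ExE (SD, n = 4 each). Elf5 is known to be methylated in the epiblast and unmethylated in ExE, so that its ExE level was lower but not low. The window of Pou5f1, the pluripotency factor Oct4, was at 18.1% ± 5.91 and 38.9% ± 2.28. Nanog had 42.9% ± 3.75 against 56.4% ± 4.58, while Dppa3 (37.1% ± 2.55 against 28.1% ± 6.63) did not have its lower level in epiblast and Tfap2c was near 0 in both tissues (0.972% ± 1.01 and 1.83% ± 1.56). At E6.5, Elf5 was at 83.8% ± 8.39 and 74.7% ± 7.04 and did not pass (SD, n = 6 and 4, limma adjusted p = 0.0954). Pou5f1 (3.81% ± 3.20 and 39.1% ± 26.9) and Nanog (45.8% ± 17.8 and 70.7% ± 10.3) passed there (limma adjusted p = 0.00791 and 0.0291). A percentage from a dissected tissue is a mean over its cells, so that fewer methylated cells and less methylation in each cell cannot be told apart.

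Slc38a4 (ENSMUSG00000022464) is on the minus strand at chr15:96994820-97055956, and its first exon is chr15:97055855-97055956 in GENCODE. The bounds of the gDMR used here (chr15:97047500-97057000) are those of an imprinted epiblast peak of the histone modification H3K4me3 in the study, and not of a region defined by methylation. They cover the first exon, the adjoining part of the first intron and the proximal promoter. The LTR, MLTR31F_Mm, is 423 bp long (chr15:97166836-97167258), lies 110880 bp upstream of the Slc38a4 start, and holds the first exon of Gm32885 (chr15:97167177-97167244), a long intergenic non-coding RNA on the same strand. The shortest window of the gDMR at E7.5, chr15:97054490-97055278, lies within the first intron of the GENCODE gene model and ends 678 bp from the annotated start. In RefSeq, a predicted Slc38a4 transcript has its first exon inside this window (chr15:97054892-97054914), so that the window is purely intronic in the other gene models only. It held 63.4 CpGs per kb, whereas E7.5 windows of the locus outside the gDMR held 7.67 to 22.9, with a median of 14.3. The 3 sequences below carry these elements. The first is the most CpG-rich stretch of that intron window (chr15:97054490-97054789), the second the promoter proper (chr15:97055957-97056206) from the RefSeq table, and the third the side of the LTR where Gm32885 starts (chr15:97166959-97167258). All are from GRCm38, minus strand, and capitals mark CpG dinucleotides.
Slc38a4 first intron: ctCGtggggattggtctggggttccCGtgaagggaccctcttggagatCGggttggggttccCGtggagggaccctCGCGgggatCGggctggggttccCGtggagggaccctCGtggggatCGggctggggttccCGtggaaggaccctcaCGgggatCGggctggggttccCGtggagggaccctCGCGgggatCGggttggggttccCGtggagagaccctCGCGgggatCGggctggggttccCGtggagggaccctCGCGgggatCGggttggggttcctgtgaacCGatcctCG
Slc38a4 promoter: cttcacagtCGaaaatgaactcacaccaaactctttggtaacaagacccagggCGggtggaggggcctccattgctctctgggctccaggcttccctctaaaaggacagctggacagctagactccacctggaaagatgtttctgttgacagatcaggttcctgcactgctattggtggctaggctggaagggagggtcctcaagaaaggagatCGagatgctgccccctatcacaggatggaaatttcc
MLTR31F_Mm: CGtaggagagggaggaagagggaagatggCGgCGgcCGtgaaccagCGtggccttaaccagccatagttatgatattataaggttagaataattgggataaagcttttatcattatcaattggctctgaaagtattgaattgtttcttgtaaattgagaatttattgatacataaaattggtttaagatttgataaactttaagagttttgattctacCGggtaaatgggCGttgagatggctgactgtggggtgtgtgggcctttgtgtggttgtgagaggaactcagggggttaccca
The intron stretch had 27 CpGs in 300 bases, the LTR stretch 7 in 300 and the promoter stretch 3 in 250. The intron stretch is a tandem array: the letters GGGGTTCC (reverse complement GGAACCCC), a motif chosen after the sequence had been seen, occurred 8 times, each copy 37 bases from the next. The same letters occurred on either strand in 1.10% of 32851 RefSeq promoters of 300 bases, with at most 2 copies in any of them. With 5 CpGs in the 300 bases around its start, the Slc38a4 promoter itself is CpG-poor to average, since 62.0% of those promoters held at least as many, and the Gm32885 promoter held 7, the median of all.

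At E7.5, the maternal allele of the intron window was almost fully methylated and the paternal allele was almost free of methylation, in both tissues. In ExE, the maternal allele was at 93.8% and 85.5% in the B6/CAST libraries and at 100% and 90.2% in the CAST/B6 libraries, and the paternal allele was at 0%, 2.38%, 7.69% and 3.85% in the same order. In epiblast, the maternal allele was at 96.0% and 90.6% in B6/CAST and at 96.0% in the first CAST/B6 library, with no value in the second, and the paternal allele was at 3.57%, 0%, 9.21% and 1.28%. No maternal value lay near a paternal value, whichever strain the mother came from. In ExE, the maternal mean was 92.3% ± 6.13 and the paternal mean 3.48% ± 3.22 (SD, n = 4 each). In epiblast, the maternal mean was 94.2% ± 3.11 (SD, n = 3) and the paternal mean 3.52% ± 4.07 (SD, n = 4). The difference between the alleles was 88.9 ± 5.03 points (SD, n = 4) in ExE and 90.0 ± 2.86 points (SD, n = 3) in epiblast.

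**Figure D1:**
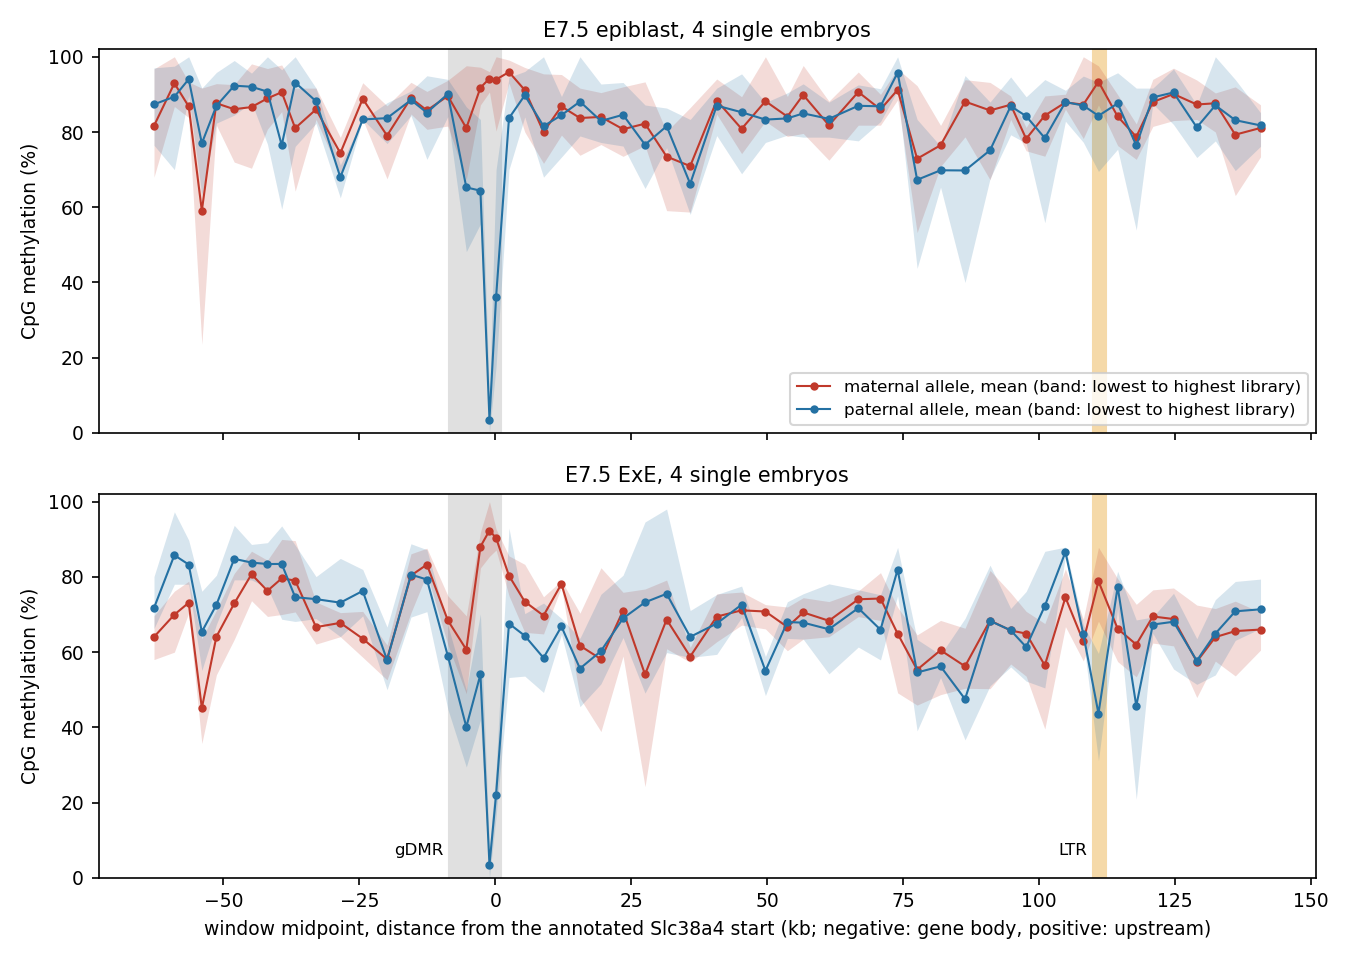
Mean CpG methylation (%) of the maternal (red) and paternal (blue) allele in windows along the locus against the distance of the window midpoint from the annotated Slc38a4 start (kb), in 4 epiblast and 4 ExE libraries at E7.5; bands run from the lowest to the highest library with a value, the grey bar is the gDMR and the yellow bar the window over the LTR. The paternal mean drops to 3.52% in epiblast and 3.48% in ExE at the intron window of the gDMR, and the alleles part again at the LTR in ExE (78.8% maternal, 43.7% paternal).

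On both sides of this window the paternal allele regained methylation, while the maternal allele stayed high up to the gene side of the gDMR. The window with the annotated start and first exon (chr15:97055301-97056899) had a paternal level of 24.6% and 18.4% in B6/CAST ExE and 16.3% and 28.9% in CAST/B6 ExE, below maternal levels of 91.3%, 87.2%, 92.7% and 90.2%. In epiblast the paternal level of the start window was less uniform, with 24.0% and 17.6% in B6/CAST and 70.0% and 32.6% in CAST/B6, against maternal levels of 95.5%, 80.3%, 100% and 100%. The first CAST/B6 epiblast library was thus the highest, and its paternal level stayed below the lowest maternal one. The next window into the gene (chr15:97051955-97054489) had means of 88.0% ± 4.02 on the maternal and 54.1% ± 11.8 on the paternal allele in ExE (SD, n = 4 each), and 91.8% ± 5.06 (SD, n = 3) and 64.4% ± 13.1 (SD, n = 4) in epiblast. The most gene-ward window (chr15:97049300-97051954) had 60.7% ± 9.17 and 40.1% ± 10.5 in ExE and 81.0% ± 13.0 and 65.3% ± 15.97 in epiblast (SD, n = 4 each), so that the ranges of the alleles overlapped there in both tissues. The maternal allele was nevertheless the higher one within each of the 4 ExE libraries in each of the 4 gDMR windows. Just beyond the gDMR, on the upstream side (chr15:97057168-97059780), the difference was 12.7 ± 6.28 points in ExE and 12.2 ± 4.67 points in epiblast (SE), and the first CAST/B6 ExE library had the opposite order there (83.3% maternal, 93.0% paternal).

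In a fit of the maternal minus paternal difference with limma over all windows with both alleles in every library, 23 of 318358 windows (0.00722%) passed an adjusted p of 0.05 in ExE, and the intron window was the only one of the 57 locus windows tested to do so (88.9 ± 4.19 points, SE; unadjusted p of 6.29e-07, adjusted p = 0.0270 by the limma fit). By the size of the maternal excess it ranked 4 of all windows tested, and the start window, at 68.3 ± 4.38 points, ranked 21 with a limma adjusted p of 0.0527. No locus window passed with trend and robust eBayes or with missing values allowed, while more passed without the cross term or with library means subtracted. At an unadjusted p of 0.05, 15 of 57 locus windows passed in ExE, beside 6.38% of all windows. When any 1 of the ExE libraries was left out, the difference of the intron window ran from 86.2 to 91.5 points, its adjusted p from 0.395 to 0.523, and no locus window passed. In epiblast, 20 of 238529 windows (0.00838%) passed and 0 of 48 locus windows did, with 3 at an unadjusted p of 0.05 beside 4.87% of all windows in the limma fit. The intron window was not part of the epiblast fit because of its missing maternal value. The start window differed by 57.9 ± 6.71 points (SE) in epiblast, rank 19 of all windows, with a limma adjusted p of 0.754. With 4 libraries, an exact sign-flip test over libraries cannot go below p = 0.125, which is the value it gave for the intron window in ExE.

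**Figure D2:**
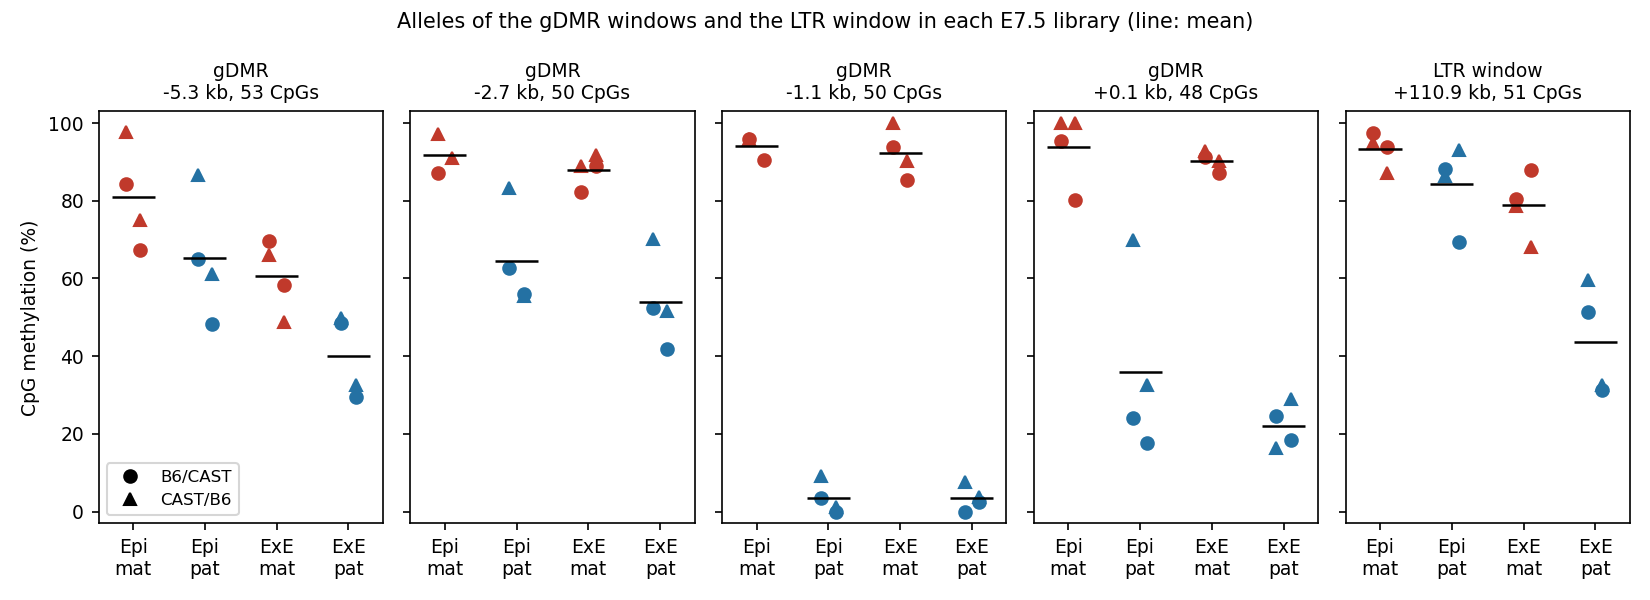
CpG methylation (%) of the maternal (red) and paternal (blue) allele in each E7.5 library for the 4 gDMR windows and the window over the LTR, labelled by distance of the midpoint from the Slc38a4 start and number of CpGs; circles are B6/CAST, triangles CAST/B6, and lines are means. Paternal values of the intron window lie between 0% and 9.21%, and those of the LTR window between 31.2% and 59.6% in ExE and between 69.5% and 93.2% in epiblast.

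The window over the LTR (chr15:97165338-97168386) differed between the alleles in ExE, with a smaller and less uniform gap. It is 3049 bp long with 51 CpGs, of which the 14 CpGs of the LTR are 27.5%, so that most of its value comes from sequence next to the element. In ExE, the maternal allele was at 80.6% and 87.9% in B6/CAST and at 78.7% and 68.2% in CAST/B6, and the paternal allele at 51.3%, 31.2%, 59.6% and 32.6%. Every maternal level was above every paternal one. In epiblast, the maternal levels were 97.6%, 93.8%, 95% and 87.2% and the paternal levels 88.2%, 69.5%, 86.3% and 93.2%, so that the ranges overlapped and the second CAST/B6 library had the paternal allele higher. The means were 78.8% ± 8.10 against 43.7% ± 14.0 in ExE and 93.4% ± 4.42 against 84.3% ± 10.3 in epiblast (SD, n = 4 each). The difference of 35.2 ± 5.97 points (SE) in ExE ranked 45 of all windows and had an unadjusted p of 0.00101 and an adjusted p of 0.777 by limma. The exact sign-flip test gave p = 0.125, the smallest it can give with 4 libraries. In epiblast the difference was 9.07 ± 4.95 points (SE; limma adjusted p = 0.941), with the maternal allele higher in 3 of 4 libraries.

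The difference between the tissues in this allelic gap was tested directly. At the LTR window the gap was 26.1 ± 8.09 points (SE) wider in ExE than in epiblast, with an unadjusted p of 0.0101 and an adjusted p of 0.912 by limma, a test that called 0 of 237650 windows, 5.41% of which passed an unadjusted p of 0.05. A two-sided exact permutation test of the tissue labels gave p = 0.0571, where 0.0286 is the smallest possible. The tissue difference in the gap therefore did not pass either test. At the start window the gap was 10.4 ± 8.50 points (SE) wider in ExE (limma adjusted p = 0.930), and the intron window differed by -1.10 points between the tissues. The paternal allele of the LTR window was thus the one whose mean moved most between the tissues, at 43.7% in ExE and 84.3% in epiblast, whereas the paternal allele of the intron window was at 3.48% and 3.52%.

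Away from the gDMR and the LTR, differences between the alleles went both ways. In epiblast, they ran from -12.1 to 14.1 points over 45 other windows, a range that holds the 9.07 points of the LTR window. Over the 52 other locus windows tested in ExE, they ran from -20.3 to 16.3 points with a median of -0.24 points, and at an unadjusted p of 0.05 in limma, 3 windows had the maternal and 7 the paternal allele higher, beside 6.38% of all windows in either direction. Of the 52, 4 windows had the maternal and 6 the paternal allele higher in all 4 libraries, and over all windows these shares were 6.32% and 6.27%. Counting the gDMR and the LTR, 9 and 6 of 57 windows did so. In the gene body outside the gDMR, the paternal allele was on average the more methylated one in each ExE library, by -9.78 and -4.99 points (maternal minus paternal) in B6/CAST and -3.52 and -7.23 points in CAST/B6 over 14 windows without any overlap with the gDMR. A negative mean was found in 11 of the 14 windows, beside 50.6% of all windows. In epiblast the means per library were 0.40, -0.05, -0.71 and -3.19 points over 11 windows. The window at the 3' end of the gene, chr15:96995594-96998300, had maternal levels of 60.0%, 71.2%, 72.5% and 76.2% in ExE, below paternal levels of 78.1%, 79.3%, 88.5% and 97.3% in the same libraries (-15.8 ± 4.13 points, SE; unadjusted p of 0.00848, adjusted p = 0.777 by limma). No body window passed the adjusted threshold in either tissue.

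Between the gDMR and the upstream elements, 3 of 17 windows had the maternal allele higher in all 4 ExE libraries, beside 6.32% of all windows. They are part of the 4 such windows counted above. The largest of these, chr15:97103162-97108088, had 72.4%, 72.6%, 66.2% and 72.0% on the maternal and 48.4%, 55.5%, 57.5% and 58.8% on the paternal allele (15.7 ± 3.98 points, SE; adjusted p = 0.777 by limma). It overlaps exons of the RefSeq non-coding RNAs Gm32733 and Gm32840, the second of which runs through the gDMR as an intron. At 74.0 kb upstream, the window chr15:97128368-97131501, which lies under another ExE H3K4me3 peak of the study, had the opposite order, with maternal levels of 71.9%, 49.2%, 68.4% and 70.1% and paternal levels of 87.8%, 75%, 82.3% and 82.6% (-17.0 ± 4.07 points, SE; adjusted p = 0.777 by limma). Of the other windows under the upstream peaks, the highest maternal excess in ExE was 8.73 points. The window next to that of the LTR on the gene side, chr15:97162813-97165337, had a difference of -1.91 points, and the one on the far side, chr15:97168402-97172378, of -11.1 points.

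No strain difference passed the test at the gDMR or the LTR. In ExE, the B6 minus CAST coefficient was -0.45 ± 4.19 points (SE) at the intron window, -0.61 ± 4.38 points at the start window and 7.83 ± 5.97 points at the LTR window (limma adjusted p = 0.991, 0.988 and 0.737). In epiblast it was 9.17 ± 6.71 points (SE) at the start window and 7.72 ± 4.95 points at the LTR window, the latter beside a parental difference of 9.07 points (limma adjusted p = 0.831 and 0.808). No window passed in either tissue (limma; 0 of 318358 in ExE and 0 of 238529 in epiblast, with 8.73% and 6.65% at an unadjusted p of 0.05). The largest strain coefficient in the locus was at chr15:97081691-97085285, in the interval, with 33.0 ± 6.002 points in ExE (limma adjusted p = 0.539). There, the CAST allele had 24.2% and 57.7% as the maternal allele of CAST/B6 and 49.1% and 57.6% as the paternal allele of B6/CAST, and the B6 allele had 91.7% and 94.6% as the paternal allele of CAST/B6 and 57.5% and 76.8% as the maternal allele of B6/CAST.

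Without separation of the alleles, epiblast was more methylated than ExE in most windows of the locus, as it was over the genome. At E7.5, 52 of 58 windows passed in limma, all higher in epiblast, beside 84.2% of all windows in either direction and 82.9% in this one, and the median difference was 15.4 points in the locus and 16.5 points over all windows. The intron window was the one with the smallest difference, 1.09 ± 9.35 points (SE; limma adjusted p = 0.922), with 39.6%, 68.5%, 48.9% and 30.7% in the epiblast libraries and 28.9%, 47.7%, 64.8% and 42.0% in the ExE libraries. The levels varied widely between libraries, and their mean, 46.9% ± 16.2 in epiblast and 45.8% ± 14.9 in ExE (SD, n = 4 each), lay about midway between the 2 alleles. The LTR window had 87.9%, 83.0%, 84.6% and 85.2% in epiblast and 66.7%, 53.0%, 74.5% and 48.4% in ExE. The groups did not overlap (85.2% ± 2.02 against 60.7% ± 12.1, SD, n = 4 each; 24.5 ± 5.43 points, SE, limma adjusted p = 0.00277; two-sided exact permutation p = 0.0286, the smallest possible), a separation found in 73.8% of all windows. After the autosomal mean of each library had been subtracted, 7 locus windows passed, 1 higher and 6 lower in epiblast, beside 39.8% of all windows, and the difference of the LTR window was 8.21 points with a limma adjusted p of 0.209. The mean over the 4 gDMR windows was 64.7% ± 4.39 in epiblast and 54.1% ± 6.77 in ExE, and its difference of 10.6 points turned to -5.69 points under the subtraction.

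The window with the widest gap between the tissues at E7.5 was neither of these. It was chr15:97140122-97144530, 86.4 kb upstream of the start, under another of the upstream ExE peaks and in no annotated gene. It had 82.5%, 87.4%, 82.0% and 77.8% in epiblast and 54.0%, 46.4%, 46.0% and 48.4% in ExE (33.7 ± 2.57 points, SE; adjusted p = 7.92e-05 by limma). Its alleles in ExE were at 50.4%, 66.4%, 57.6% and 50.6% on the maternal and 36.7%, 40%, 44.4% and 69.0% on the paternal side, with no common direction. The next largest outside the gDMR and the LTR were chr15:97182884-97187002 beyond the LTR, overlapping an exon of Gm33253, with 26.1 ± 3.91 points, and chr15:97069461-97073584 in an intron of Gm32840, with 22.4 ± 2.74 points (SE; limma adjusted p = 0.000397 and 0.000173).

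At E6.5, when windows were placed differently, so that no locus window had the same start and end as at E7.5 and days can only be set side by side, 25 of 46 windows passed in limma, all higher in epiblast, beside 60.3% of all windows in either direction and 59.6% in this one. The LTR window of that table (chr15:97165058-97169124, 66 CpGs, of which 21.2% are in the LTR) had 62.0%, 87.5% and 80.0% in B6/CAST epiblast, 95%, 98.2% and 97.7% in CAST/B6 epiblast, 63.6% and 54.7% in B6/CAST ExE, and 80.6% and 65% in CAST/B6 ExE. The lowest epiblast library was below the highest ExE libraries, and the difference was 20.8 ± 5.43 points (SE; limma adjusted p = 0.00757; two-sided exact permutation p = 0.0667 over 6 and 4 libraries). With the library means subtracted it was 4.29 points with a limma adjusted p of 0.582, and 3 locus windows passed, all lower in epiblast, beside 14.9% of all windows in either direction. The shortest gDMR window at E6.5 (chr15:97054601-97055699, with 48.2 CpGs per kb) was at 62.0% ± 15.5 (SD, n = 6) in epiblast and 45.01% ± 13.7 (SD, n = 4) in ExE (17.0 ± 8.42 points, SE; limma adjusted p = 0.0971). This difference passed without the unnumbered B6/CAST epiblast library (21.5 points, limma adjusted p = 0.0382) or without the first CAST/B6 ExE library (23.9 points, adjusted p = 0.0339). The gene-ward gDMR window (chr15:97049548-97052376) was at 68.6% ± 8.20 (SD, n = 6) in epiblast and 62.6% ± 16.6 (SD, n = 4) in ExE (6.02 ± 6.89 points, SE; limma adjusted p = 0.457). The middle one (chr15:97052383-97054600), at 71.1% ± 13.8 (SD, n = 5) and 64.5% ± 12.3 (SD, n = 4), was not part of the fit because of a missing epiblast value. With the replicate number as a block, 5 of 46 windows passed, beside 53533 of 250886 over the genome, and the window over the LTR was not among them. Leaving out the first B6/CAST ExE library lowered the count of 25 windows to 16. The 3 windows with the largest differences past the threshold were chr15:97130795-97135532 (28.9 ± 3.70 points, SE), chr15:97069146-97072997 (28.1 ± 5.69) and chr15:97186150-97188980 (27.4 ± 4.69), at limma adjusted p of 0.000475, 0.00226 and 0.00111.

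**Figure D3:**
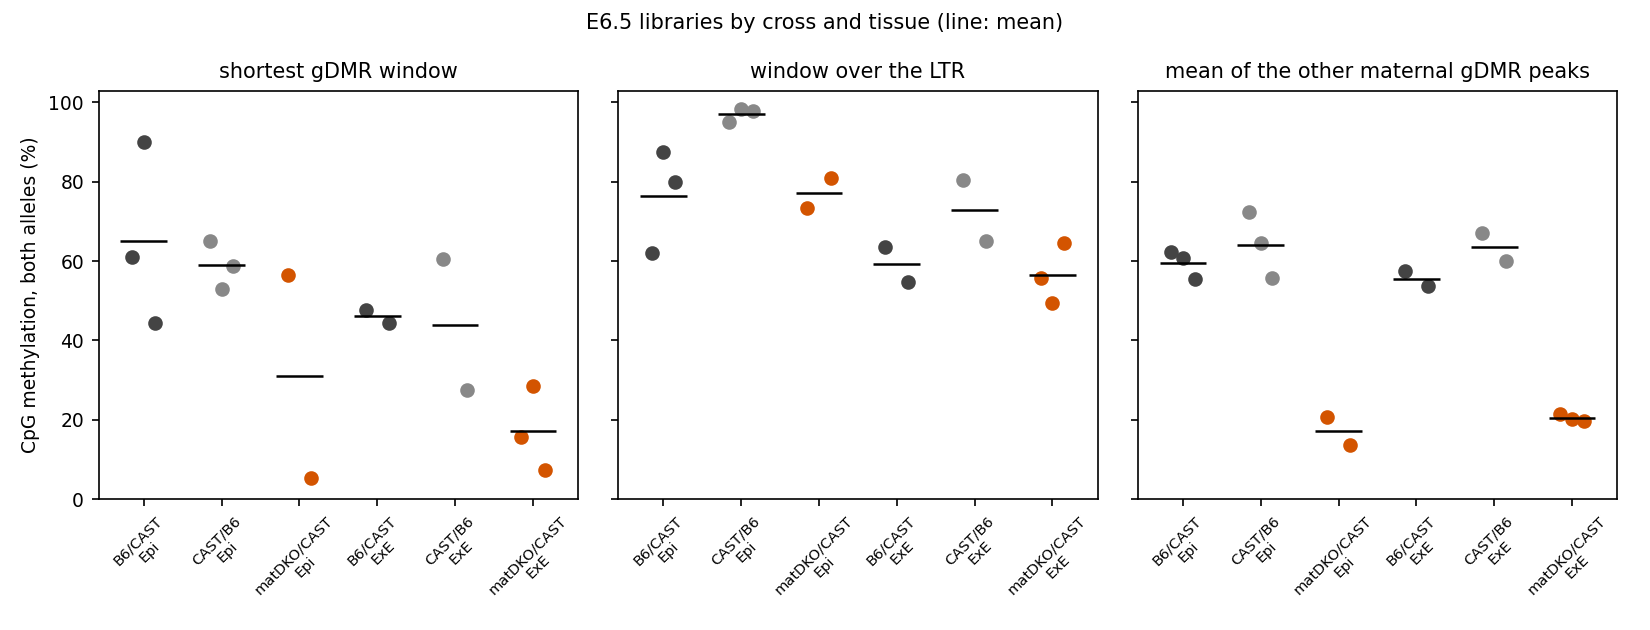
CpG methylation (%, both alleles together) of the shortest gDMR window, the window over the LTR, and the mean of the other maternal gDMR peaks in each E6.5 library, by cross and tissue; points are libraries, lines are means, and orange marks matDKO/CAST. The matDKO/CAST libraries sit between 5.33% and 56.5% at the gDMR window and between 49.3% and 81.0% at the LTR, while the mean of the other peaks lies between 13.7% and 21.5% in these libraries.

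Loss of oocyte methylation was compared in matDKO/CAST and B6/CAST, the wild-type cross of the same direction, at E6.5. At the shortest gDMR window, the matDKO/CAST epiblast libraries had 56.5% and 5.33%, and B6/CAST had 61.1%, 90.0% and 44.3%. One of the knockout libraries was thus within the wild-type range and the other far below it. In ExE, matDKO/CAST had 15.8%, 28.4% and 7.45% and B6/CAST had 47.6% and 44.4%, with no overlap, although the second CAST/B6 library, at 27.4%, was as low as the highest matDKO/CAST library. The difference was -34.2 ± 16.1 points in epiblast and -28.8 ± 10.4 points in ExE (SE; limma adjusted p = 0.137 and 0.155). Against the mean of both wild-type crosses, the ExE difference was -27.8 points with a limma adjusted p of 0.0323. In that fit, 49% of all windows passed as lower in matDKO/CAST, and the median over all windows was -18.7 points. Exact permutation tests of these groups cannot go below p = 0.2. Averaged over 3 gDMR windows, the ExE libraries of matDKO/CAST were at 34.1% ± 7.39 (SD, n = 3) and those of B6/CAST at 53.7% ± 3.76 (SD, n = 2). This difference of -19.6 points, beside a median of -12.4 points over all windows, was -7.61 points with library means subtracted. The gene-ward window had 33.7%, 14.8% and 30.8% in matDKO/CAST against 51.9% and 62.2% in B6/CAST, with no overlap (-30.6 ± 11.02 points, SE; limma adjusted p = 0.155). The middle window had 73.6%, 35.7% and 66.7% against 69.5% and 46.4%, which overlapped (0.74 ± 11.8 points, SE; limma adjusted p = 0.973). The window over the annotated start, chr15:97055700-97058718, whose midpoint lies outside the gDMR, had 41.7%, 27.6% and 9.09% against 63.5% and 45.9%, and was not part of the fit because of a missing CAST/B6 value. In epiblast, the gene-ward window had 77.8% and 33.3% against 65.9%, 67.9% and 66.0% (-11.01 ± 12.2 points, SE; limma adjusted p = 0.502), so that the knockout libraries again lay on either side of the wild type.

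Library 1 of matDKO/CAST epiblast stood apart at this gDMR. Over the 2 gDMR windows measured in all epiblast libraries it was at 67.1%, above each of the 10 other maternal gDMR peaks, which averaged 20.8% in that library with a highest value of 49.0%. Library 3, the other one, was at 19.3%, where the other peaks averaged 13.7% and 2 of 10 were above it. In ExE, where 3 gDMR windows were measured in all libraries, the Slc38a4 gDMR was at 41.0%, 26.3% and 34.96%. Of 12 other peaks, which averaged 21.5%, 20.1% and 19.8%, 1, 2 and 2 were above it. Over the same 2 windows as in epiblast, without the middle one, the Slc38a4 gDMR was at 24.7%, 21.6% and 19.1% in these ExE libraries, near the averages of the other peaks. With library 3 as the only matDKO/CAST epiblast library, the difference at the shortest window was -59.8 points, and with library 1 as the only one it was -8.61 points. The alleles are not separated in the E6.5 table, so that the parental origin of the methylation left at the gDMR in matDKO/CAST was not measured here.

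At the LTR window, matDKO/CAST overlapped B6/CAST. It had 73.3% and 81.0% in matDKO/CAST epiblast, inside the B6/CAST range, and 55.8%, 49.3% and 64.4% in matDKO/CAST ExE, where B6/CAST had 63.6% and 54.7%. The differences were 0.65 ± 7.67 points in epiblast and -2.64 ± 7.57 points in ExE (SE; limma adjusted p = 0.958 and 0.831), while the median over all windows was -16.4 points in epiblast and -12.4 points in ExE. Against both wild-type crosses, they were -9.59 points in epiblast, with the sign turned, and -9.46 points in ExE (limma adjusted p = 0.248 and 0.217). With library means subtracted, they were 17.4 and 9.79 points against B6/CAST (limma adjusted p = 0.239 and 0.888). Over the 2 windows of this upstream peak together, matDKO/CAST was at 68.6% ± 7.16 (SD, n = 2) and the wild type of both crosses at 87.3% ± 9.70 (SD, n = 6) in epiblast, with overlap. In ExE these windows were at 48.7% ± 3.37 (SD, n = 3) in matDKO/CAST, with a highest library of 52.5%, and at 68.1% ± 8.66 (SD, n = 4) in the wild type, with a lowest library of 59.9%, so that the groups did not overlap.

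Along the locus as a whole, 10 of 38 windows passed in epiblast in limma, all lower in matDKO/CAST, beside 23.4% of all windows, and the median difference was -15.3 points. The largest were chr15:97186150-97188980 beyond the LTR, with 40% and 39.3% against 78.9%, 85.7% and 89.8% (-45.2 ± 5.68 points, SE; limma adjusted p = 0.0129), and a pair in the interval, chr15:97108121-97112040 (-39.7 ± 8.59) and chr15:97112076-97115464 (-35.8 ± 8.60), with limma adjusted p of 0.0201 and 0.0255. No gDMR window was among the 10. The count fell to 6 without the B6/CAST epiblast library 3, to 3 without the unnumbered one and to 6 without matDKO/CAST library 3. It was 0 after subtraction of library means, on the logit scale and with the replicate number as a block, as was the count over all windows in each of these limma fits, with 8, 13 and 11 of 38 locus windows at an unadjusted p of 0.05. In ExE, 0 of 47 windows passed in limma, as did 0 of 254322 over the genome, with 19 of 47 at an unadjusted p of 0.05 beside 25.8% of all windows. Against both wild-type crosses, 20 of 38 epiblast and 27 of 47 ExE locus windows passed, all lower in matDKO/CAST, beside 53% and 49% of all windows. Every matDKO/CAST library was below every wild-type library in 18 of 38 windows in epiblast and in 24 of 47 in ExE, beside 47.3% and 42.8% of all windows.

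The reciprocal crosses differed at E6.5 in the general level of their libraries, and this was seen in the locus as well. The median CAST/B6 minus B6/CAST difference was 8.00 points over all windows in epiblast and 6.94 points in the locus, and 11.5 and 9.94 points in ExE. No window passed in limma in epiblast (0 of 192419) or in ExE (0 of 254322), with 14.2% and 23.3% at an unadjusted p of 0.05, and 8 of 38 and 8 of 47 in the locus. At the LTR window, CAST/B6 epiblast was above B6/CAST in every library (97.0% ± 1.73 against 76.5% ± 13.1, SD, n = 3 each; exact permutation p = 0.100, the smallest possible), and the limma adjusted p was 0.308. At the shortest gDMR window, the crosses had 58.9% ± 6.01 and 65.1% ± 23.1 and overlapped. Both alleles contribute to these values, so that a strain and a parental effect cannot be told apart at E6.5.

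To place the locus among imprinted regions, the gDMR was set beside the other maternal gDMRs that carried an allelic H3K4me3 peak. The LTR was set beside the transcribed ERVK LTRs that lie in non-canonically imprinted paternal H3K4me3 peaks of the study, and transcribed ERVK LTRs outside such peaks were not part of the list. Both lists were chosen on embryos of the same study. As a mean over its windows, the Slc38a4 gDMR differed by 52.9 ± 2.78 points between the alleles in ExE (SD, n = 4), which ranked 9 from the highest among 14 peaks with values, whose median was 58.3 points, and by 36.8 ± 11.1 points in epiblast, ranked 11 of 13. The epiblast value covers only the 2 windows with both alleles in every library, without the intron window, and over the same 2 windows the ExE difference was 44.4 ± 4.24 points (SD, n = 4). With missing values allowed, all 4 windows gave 45.9 ± 10.5 points in epiblast. By the largest single window, the 88.9 points of the intron window in ExE ranked 3 of 14. The LTR, at 35.2 points in ExE, was second of 8 LTRs, after the RLTR15 element of Gab1, a signalling adaptor gene (44.6 ± 5.56 points, SD, n = 4), and before the RLTR11B element of Sfmbt2, a Polycomb-related gene (27.2 ± 17.2), with a list median of 14.8 points. In epiblast it was again second, at 9.07 points beside 22.9 ± 8.43 for Gab1. The list medians and ranks are descriptions without a test.

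**Figure D4:**
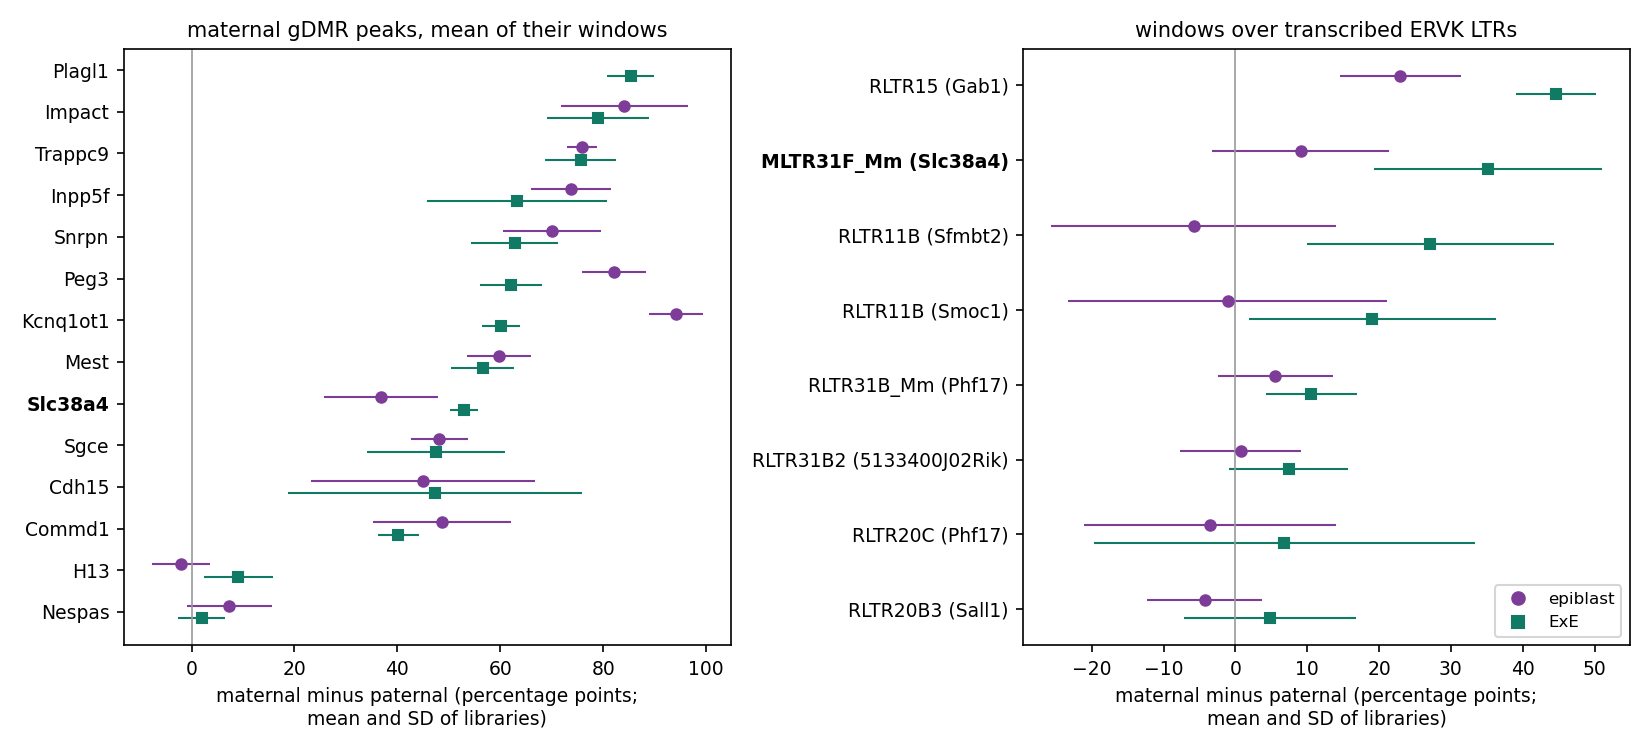
Maternal minus paternal methylation at E7.5 (percentage points) of maternal gDMR peaks, as the mean of their windows (left), and of windows over transcribed ERVK LTRs in non-canonically imprinted H3K4me3 peaks (right), in epiblast (purple circles) and ExE (green squares). Points are means and bars the SD over libraries, and Slc38a4 is in bold. The Slc38a4 gDMR, at 52.9 points in ExE, covers 4 windows, in epiblast 2, and lies below the median of its list (58.3), and its LTR, at 35.2 points in ExE, lies above the median of its list (14.8).

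Among the other SLC38 amino acid transporters, the window over the start was nearly unmethylated at E7.5 for Slc38a1 (2.51% ± 1.84 in epiblast, 2.14% ± 0.585 in ExE), Slc38a2 (0.498% ± 0.358 and 0.962% ± 0.519) and Slc38a10 (0.955% ± 0.674 and 0.610% ± 0.320). These are near neighbours of Slc38a4 on chromosome 15 in the case of Slc38a1 and Slc38a2. The start window of Slc38a3 had a level like that of Slc38a4 over both alleles (65.8% ± 4.33 and 55.9% ± 7.52, beside 66.7% ± 4.03 and 53.4% ± 8.82; SD, n = 4 each), and the levels of the pair overlapped in both tissues. The maternal minus paternal difference, 57.9 points in epiblast and 68.3 points in ExE at the Slc38a4 start window, lay between -7.63 and 14.4 points in both tissues at the other autosomal members with values. The levels of the start windows given here thus ranged from nearly unmethylated to intermediate.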

How the data were processed

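DNA methylation was measured by PBAT in 23 libraries of epiblast and ExE. The authors trimmed reads with Trim Galore 0.4.4 and aligned them with Bismark 0.20.0 to GRCm38 with the strain SNPs masked. Both versions are those of the submitters' processing notes, and the paper names other ones. The alleles were separated with SNPsplit, and the authors deposited percent methylation (0 to 100) per window, named as windows of 100 CpGs. For matDKO/CAST the authors made extra alignments for the alleles of the 129 strain, and they left out 1 matDKO/CAST epiblast replicate. The labels state that bisulphite conversion was repeated after a poor first conversion. Locus windows held a median of 59 CpGs in the E6.5 table and 51 in the E7.5 table. The deposited percentages come without coverage, so that the depth of each value and its counting error are unknown, and means and SDs over libraries are given.

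Groups came from the sample labels. Columns were read as deposited. The members, lists and tests were chosen with earlier results of these data known. Percentages of all autosomal windows with a value in every library of a comparison were fitted with limma 3.58.1 (lmFit and eBayes, default settings) in R 4.3.3, with the cross as a covariate between tissues, group means for the crosses and matDKO/CAST, and the cross coded with opposite signs for the maternal minus paternal difference. P-values were adjusted by Benjamini-Hochberg over all windows, with a threshold of 0.05. Fits were tested on simulated data. Single windows were also compared by two-sided exact permutation or sign-flip tests over libraries (scipy 1.17.1, Python 3.11.15). P-values measure the spread between embryos or pools.

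All gDMR windows and the window over the LTR were named, plus up to 3 further windows in each direction with the largest difference past the threshold in each comparison; other windows named were chosen after their values were seen. Markers and SLC38 genes were read from the shortest window over their start. Alternatives were the logit scale, trend and robust eBayes, every second window, missing values allowed, library means subtracted, the cross term left out, both wild-type crosses, other assignments of windows to elements, a replicate block, and each library left out. Genes came from GENCODE vM21 and RefSeq GRCm38.p6, and sequences from GRCm38. Allelic H3K4me3, expression and other assays of the study were not analysed here. Some windows picked for their likeness to the locus are not reported here.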

Additional observations from a re-analysis of the deposited data

Results flagged for a closer look

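In the E7.5 ExE libraries, the gDMR window chr15:97051955-97054489, between the intron window and the gene-ward end of the gDMR, was at 79.2% in the first CAST/B6 library, above 61.3% and 59.8% in B6/CAST and 58.6% in the second CAST/B6 library. The gap to the nearest library exceeded the critical value of Dixon's test for 4 samples. It was the only 1 of 36 groups of libraries so tested, and chance alone gives about 1 in 20. The same library also had the highest paternal level of the 4 in this window (70.2%, beside 52.5%, 41.9% and 51.6%) and the highest unsplit level in the intron window (64.8%).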

How the results depend on the processing

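Of all alternatives and left-out libraries together, 381 values were counted as staying with the reported one, and 42 were not. Staying meant a count of similar size, a gDMR mean moved by less than the larger group SD, or a window on the same side of the threshold. A sign could turn within these limits, so that the count does not measure how often the direction was kept. With the autosomal mean of each library subtracted, tissue windows past the threshold went from 25 to 3 at E6.5 and from 52 to 7 at E7.5, the LTR window to 4.29 and 8.21 points, the gDMR mean to -5.05 and -5.69 points, matDKO/CAST epiblast windows from 10 to 0, the matDKO/CAST ExE gDMR mean to -7.61 points, and the parental count in ExE from 1 to 2. With every second window, the counts were 12, 27 and 6, as fewer windows were tested. On the logit scale, 0 matDKO/CAST epiblast windows passed. Against both wild-type crosses, 20 passed in epiblast and 27 in ExE, and the shortest gDMR window in ExE was at -27.8 points. With trend and robust eBayes or with missing values allowed, the parental count in ExE was 0 and the intron window, at 88.9 points, had adjusted p of 0.122 and 0.0544 by limma; without the cross term the count was 2. With every window that overlaps the gDMR, its mean allelic difference was 24.4 points in epiblast and 44.2 points in ExE. The causes were not tested.

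Where leaving out 1 library left a single library in a group, that library was assumed to vary like the others. With 1 library left out, the tissue count ran from 16 to 26 at E6.5 and from 46 to 51 at E7.5, the matDKO/CAST epiblast count from 3 to 13, and the other counts were 0 throughout. The shortest gDMR window ran from 11.1 to 23.9 points (tissue E6.5), -7.61 to 8.58 (tissue E7.5), -59.8 to -8.61 (matDKO/CAST epiblast), -34.4 to -23.9 (matDKO/CAST ExE) and 86.2 to 91.5 (parents, ExE). The gDMR mean difference between the alleles ran from 31.8 to 53.7 points in epiblast, the highest without the second CAST/B6 library, when windows without a value there were counted too, and from 51.6 to 53.6 points in ExE. The LTR window ran from 17.0 to 24.4 points (tissue E6.5), 19.5 to 29.97 (tissue E7.5), -6.61 to 6.15 (matDKO/CAST epiblast), -7.09 to 1.81 (matDKO/CAST ExE), 28.3 to 42.0 (parents, ExE) and 5.35 to 12.8 (parents, epiblast).

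Deviations of libraries with the same replicate number had correlations from -0.0122 to 0.0506 over windows, and all E7.5 pairs were slightly positive (0.0486 and 0.0506). In groups of 2 libraries both pairs give the same value by construction, so that this check cannot tell whether such libraries share an embryo. With the replicate number as a block, 5 tissue windows passed at E6.5, with the LTR window at 15.3 points (limma adjusted p = 0.161), 53 at E7.5, and 0 in matDKO/CAST epiblast. The unknown number of reads per window, 2 to 3 libraries in most groups, and windows in which the LTR holds a minority of CpGs limit all of these values.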

Other observations

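Among 237602 windows with a value for each allele of the 8 libraries, those outside the locus whose allele levels at E7.5 were among the 5 nearest to the mean of the Slc38a4 gDMR included windows at Plagl1, a zinc finger gene with a known maternal gDMR (mean absolute difference 9.65 points), Commd1 and Zrsr1, likewise at a known maternal gDMR (10.6), Gpr1 and Platr12 (10.9), and Psma2 (11.1). At Plagl1 the means were 90.5% maternal and 61.2% paternal in epiblast and 76.3% and 40.4% in ExE. The 5 windows nearest to the LTR window included those at Pgm2l1 (6.93 points) and Slc22a18 (6.97). Slc22a18, a transporter gene in the imprinted region of Kcnq1ot1, had 87.7% and 85.1% in epiblast and 74.6% and 43.2% in ExE. These windows were picked for their likeness over 16 allele values each, and no test was made of it.

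At E6.5, the window under the third upstream H3K4me3 peak counted from the gene (chr15:97141088-97145552) was the most uneven of the locus windows described here among wild-type epiblast libraries. It was at 15.7%, 39.5% and 84.8% in B6/CAST and at 94.2%, 63.4% and 79.3% in CAST/B6. In ExE it was at 29.5% and 33.1% in B6/CAST, 61.8% and 41.9% in CAST/B6, and 14.6%, 27.0% and 13.3% in matDKO/CAST. The difference between the tissues was 21.3 ± 11.2 points (SE; limma adjusted p = 0.115).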
